A study of Saccharomyces cerevisiae with 161 samples.

Results

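Isolated Red1 summits are local high points of Red1 signal, strong or weak, that stand apart from other listed summits along a meiotic chromosome. The members were chosen by the measured positions of the summits in a deposited list for wild-type cells: a summit counted as isolated when it lay more than 5000 bp from both the preceding and the following summit on its chromosome. The rule selected 319 of 2385 summits. A further 2034 summits had a neighbour within 5000 bp on at least 1 side and are called the other summits. The remaining 32 were the first or last summit of 1 of the 16 chromosomes, where the distance on 1 side is undefined, and were left out. All distances between summits, and all measures of Red1 itself, come from the libraries that chose the members and are given below as descriptions.

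The lists came from chromatin immunoprecipitation followed by sequencing (ChIP-seq) of budding yeast at 3 h after meiotic induction, and the labels of all strains give the SK1 background. The Red1 list combined 4 samples, 3 of strain H119 and 1 of strain H6408, which is labelled SMC4-PK9 and so carries a tagged condensin subunit. The Hop1 list combined 4 samples, 1 of H6408, 2 of H574 and 1 of H119, and the Rec8 list combined 2 samples of H4471, precipitated with an anti-HA antibody. The H6408 samples of Red1 and Hop1 shared 1 input library, whereas the Rec8 samples had inputs of their own. There was 1 list per protein, so no value below has a replicate error and no difference was tested. No read counts accompany the lists, and the depth of the libraries is unknown. The 95% intervals given below, Wilson intervals for shares and order-statistic intervals for medians, cover counting error only and treat summits as independent, although neighbouring summits share chromosome and libraries.

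Red1, Hop1 and Rec8 are components of the chromosome axis, the protein scaffold that organises meiotic chromosomes into arrays of chromatin loops. Rec8 is the kleisin subunit of meiotic cohesin, the ring complex that holds sister chromatids together and marks the bases of loops. Red1 is a filament-forming axis protein, and Hop1 is a HORMA-domain protein that binds Red1 and is needed for normal break formation and partner choice in recombination. In budding yeast, cohesin recruits Red1 to much of the genome, and Red1 and Hop1 can also load onto chromosome regions without Rec8. An isolated summit is therefore an axis site with a long stretch to the next listed Red1 summit on either side. A further broad Red1 peak can lie within that stretch. The lowest score in the summit list was 20.0, and 173 of the 1571 broad Red1 peaks (11.0%) held no listed summit.

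The isolated summits lay a median of 6967 bp from the nearer neighbour, with a range from 5006 to 19890 bp. From the preceding to the following summit, the median stretch was 18279 bp around an isolated summit and 7246 bp around another summit. The deposited list gives each summit a score, whose definition is not stated in the sources used here. The members spanned nearly the whole range of scores, from 20.4 to 2786. Their median score was 499 (95% interval 337 to 659), against 153 (141 to 165) for the other summits. The median was higher in the isolated summits on 15 of the 16 chromosomes, with chromosome VIII as the exception (85.8 against 175). When all summits were put into 5 score classes of equal size, 38.9% of the isolated summits (124) fell in the highest class, against 17.4% of the other summits, and 12.2% fell in the lowest class, against 20.9%. An isolated summit scored above both of its neighbours in 137 cases (42.9%) and below both in 82 (25.7%). For the other summits these shares were 31.7% and 34.2%.

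The isolated summit with the highest score (2786) lay on chromosome IV at position 637708 in the SK1 coordinates of the files, 8655 bp from its nearer neighbour. Its broad Red1 peak was 2054 bp wide with a mean fold enrichment over input of 3.48, and it lay 338 bp from the centre of a Rec8 peak with a fold enrichment of 2.63. The next highest were at position 261730 of chromosome X (score 2755) and position 129808 of chromosome XIV (score 2754). The summit on chromosome X was 30.0 bp from the centre of its Rec8 peak and had no other Rec8 peak between 1000 and 5000 bp on either side. The summit on chromosome XIV was close to the limit on 1 side, with neighbours at 5207 bp and 17429 bp. All 3 also lay in Hop1 peaks, with fold enrichments of 2.94, 3.43 and 2.69.

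Most isolated summits coincided with Rec8, and did so more often than the other summits. Of the 319, 297 (93.1%, 95% interval 89.8 to 95.4%) were inside a Rec8 peak, where 85.1% of all summits in the list were. The share of the other summits was 83.8% (82.2 to 85.4%), a difference of 9.28 percentage points (interval 5.62 to 12.1). The isolated summits had the higher share on 15 of 16 chromosomes. On chromosome V, 8 of 10 isolated summits were in a Rec8 peak, below the 89.0% of its other summits. The scores of the isolated summits were higher, as given above. With the other summits weighted to the scores of the isolated ones in 10 score classes, the difference was 2.69 points. Its interval (-0.83 to 5.39) included 0.

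Within score classes, the intervals of isolated and other summits overlapped. In the lowest class, with scores from 20.0 to 48.0, 27 of 39 isolated summits (69.2%, interval 53.6 to 81.4%) and 56.9% of the other summits (52.2 to 61.6%) were inside a Rec8 peak. In the second class, up to a score of 109, the shares were 77.1% and 77.0%. In the third, up to 282, they were 96.5% (88.1 to 99.0%) and 89.3% (86.0 to 91.9%). All 64 isolated summits of the fourth class and all 124 of the highest lay in Rec8 peaks, and of the other summits in these classes 99.5% and 100% did.

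**Figure D1:**
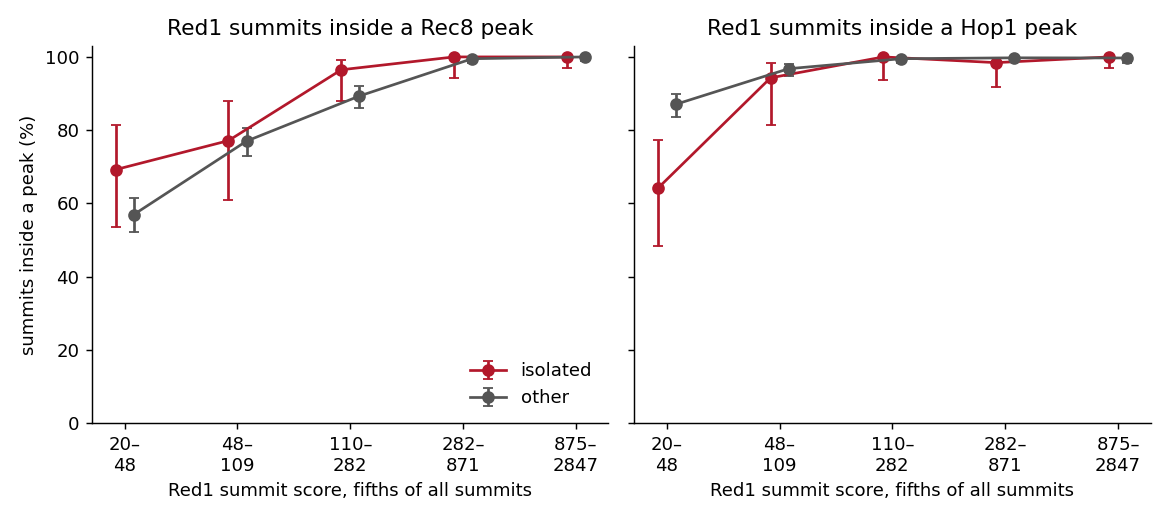
Share of Red1 summits inside a Rec8 peak (left) or a Hop1 peak (right), in percent, for isolated (red) and other (grey) summits in 5 classes of Red1 summit score; bars are 95% Wilson intervals. Rec8 overlap climbs from 69.2% to 100% with the score among the isolated summits, and Hop1 overlap in the lowest class is 64.1% for the isolated against 87.1% for the other summits.

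Most isolated summits were also inside Hop1 peaks, and how they compared with the other summits depended on the summits compared. Of the 319, 302 (94.7%, interval 91.6 to 96.6%) were inside a Hop1 peak, where 96.2% of all summits were. The other summits had 96.4% (95.5 to 97.1%), a difference of -1.74 points with an interval from -4.86 to 0.43. With the other summits weighted to the scores of the isolated ones, the difference was -3.18 points (-6.27 to -1.07). That interval used the unweighted number of summits and tends to be too narrow, so its distance from 0 is not read as a result. It was -2.87 points (-6.45 to -0.19) with Hop1 peaks at a −log10 q of at least 5, and -2.24 points (-5.21 to -0.26) when a summit within 500 bp of a peak counted as inside. The sign turned under other choices: the difference was 0.024 points (-1.58 to 0.93) when only summits with a score of at least 50 were used and 2.54 points (-1.15 to 5.92) against the 483 other summits that were alone in their broad Red1 peak.

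The shortfall in Hop1 was found among weak isolated summits. In the lowest score class, 25 of 39 isolated summits (64.1%, interval 48.4 to 77.3%) were inside a Hop1 peak, against 87.1% (83.5 to 89.9%) of the other summits, and these intervals did not overlap. The other summits that were alone in their broad Red1 peak stood at 70.8% (61.1 to 79.0%) in this class, and those that shared a broad peak at 91.8% (88.3 to 94.3%). From the second class on, the isolated summits were at 94.3% or higher. The median Hop1 peak was 1663 bp wide around isolated summits and 2631 bp around the other summits, and the part of this width in the overlap was not tested.

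Taking both proteins, 283 isolated summits (88.7%) lay in a Rec8 and a Hop1 peak. Of the rest, 14 (4.39%) were in Rec8 but not Hop1, against 2.01% of all summits, and 19 (5.96%) were in Hop1 but not Rec8, against 13.1% of all summits. Only 3 (0.94%) lay in neither, against 1.76% of all summits. The difference from the other summits in the share with Hop1 but no Rec8 was -8.30 points (interval -10.9 to -4.83), and -5.22 points (-8.99 to -1.19) from the other summits alone in their Red1 peak. Weighted to the scores of the isolated summits, it was -2.50 points, with an interval (-4.97 to 0.85) that included 0.

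**Figure D2:**
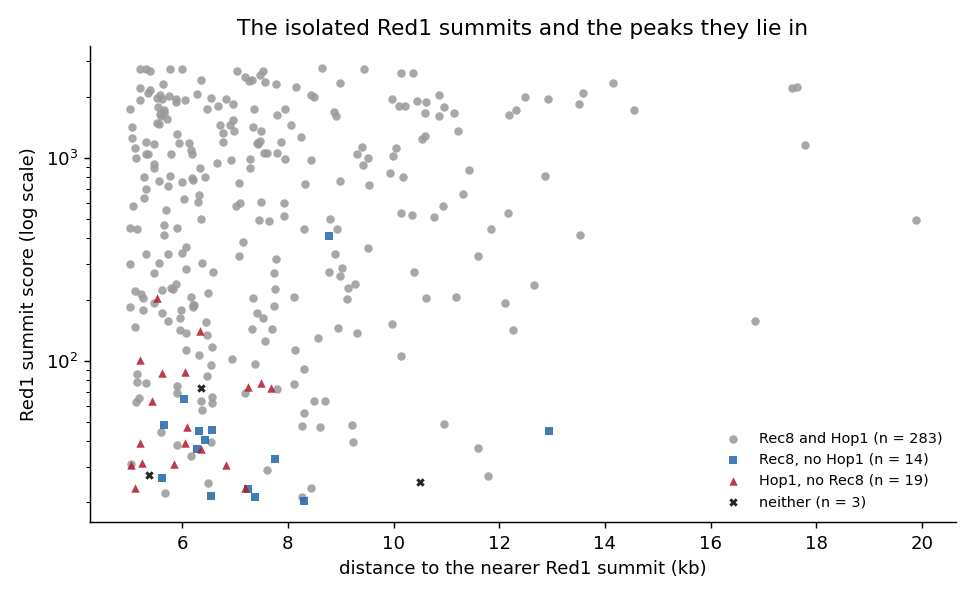
Red1 summit score (log scale) against the distance to the nearer Red1 summit in kb for the 319 isolated summits, with symbols for the Rec8 and Hop1 peaks they lie in. The 36 summits that lack Rec8, Hop1 or both have scores of at most 413, and 32 of them score under 100.

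The 22 isolated summits outside Rec8 peaks were weak: 19 of them scored under 100, their median score was 43.3, and the median fold enrichment of their broad Red1 peaks was 1.29, against 1.97 for the summits in both Rec8 and Hop1 peaks. They were spread over 12 chromosomes. Most were far from Rec8, with a median of 4269 bp to the nearest Rec8 peak, and 4 were within 500 bp of one. The highest-scoring were both on chromosome II. The summit at position 90986 scored 204 in a broad Red1 peak of 1345 bp, was inside a Hop1 peak of 892 bp with a fold enrichment of 1.33, and lay 5149 bp from the nearest Rec8 peak. Its counterpart at position 673267 scored 139 in a Red1 peak of 1458 bp, was inside a Hop1 peak of only 314 bp, and lay 5555 bp from Rec8.

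The 14 isolated summits with Rec8 but no Hop1 had a median score of 38.7, and 13 of them scored under 100. Their Rec8 peaks had a median fold enrichment of 1.32, against 1.94 for the summits in both kinds of peak, and for 10 of the 14 the Rec8 peak was wider than the Red1 peak. The nearest Hop1 peak was a median of 5449 bp away, and 2 summits were within 500 bp of one. The 2 lowest-scoring isolated summits belonged to these. At position 413208 of chromosome XVI, a score of 20.4 went with a Red1 peak of 331 bp and a Rec8 peak of 311 bp, whose fold enrichment of 1.18 was among the lowest in the Rec8 list (percentile 1.82). At position 609718 of chromosome XII, a score of 21.2 went with a Red1 peak of 281 bp and a Rec8 peak of 649 bp (fold enrichment 1.34).

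The 3 isolated summits outside both Rec8 and Hop1 peaks are named here because of that count. They lay at position 714607 of chromosome IV (score 25.3), position 32259 of chromosome VI (score 27.2) and position 487833 of chromosome VII (score 73.5). Their broad Red1 peaks were 413, 234 and 261 bp wide. The nearest Rec8 peak was 9424 bp away for the summit on chromosome IV, 4327 bp for that on chromosome VI and 4210 bp for that on chromosome VII.

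Where isolated summits met Rec8 and Hop1, the peaks were also stronger than average. The median fold enrichment of the Rec8 peak around an isolated summit was 1.92 (interval 1.84 to 1.98), against 1.68 (1.65 to 1.71) for the other summits and 1.63 over all Rec8 peaks. It was higher for the isolated summits on 13 of 16 chromosomes. For Hop1 the medians were 1.83 (1.69 to 1.95) and 1.69 (1.67 to 1.72). In ranks within its own list, the Rec8 peak around an isolated summit stood at a median percentile of 70.2, against 54.0 for the other summits. Within the highest score class, the median Rec8 fold enrichments were 2.30 and 2.13, and in the lowest class 1.37 and 1.50, so the order was not the same at every score.

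Among the isolated summits, Rec8 and Hop1 fold enrichment each ranked closely with the Red1 score. Spearman's rho between the Red1 summit score and the Rec8 fold enrichment was 0.82 over the 297 isolated summits in Rec8 peaks (Pearson's r 0.75), against 0.51 (r 0.60) over 1705 other summits. For Hop1 fold enrichment, rho was 0.94 over 302 isolated summits (r 0.91) and 0.49 over 1961 other summits (r 0.61). These values describe sites, not replicates. Rec8 was not set against Hop1, and the other summits alone in their Red1 peak were not taken separately. The summits share libraries, and several of the other summits can share the same wide Rec8 or Hop1 peak and so the same fold enrichment, which is averaged over the peak. Between the fold percentiles of the Red1 and Rec8 peaks around each summit, rho was 0.83 for the isolated and 0.67 for the other summits. Nearly every isolated summit had its peak to itself: 312 (97.8%) were the only summit of their broad Red1 peak, where 34.2% of all summits were. The rule bears directly on this share, so nothing is read from it.

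The broad Red1 peak around an isolated summit was narrower than around the other summits taken as a whole, and wider than around other summits that also had their peak to themselves. The median width was 1667 bp (interval 1522 to 1828) for the isolated summits and 2724 bp (2603 to 2825) for the other summits, a difference of -1057 bp. Of the other summits, 1551 shared their broad peak, so the same wide peak was counted for several of them. Against the 483 other summits alone in their peak, with a median of 1121 bp (977 to 1244), the direction turned, and isolated summits had the wider peaks by 546 bp (356 to 762). The first order held on 15 of 16 chromosomes and the second on all 16. A broad peak that holds just 1 of the other summits ends before a neighbour within 5000 bp on at least 1 side, which limits its width. Widths over 2000 bp were found for 118 isolated summits (37.0%), 64.4% of the other summits and 20.9% of the others alone in their peak.

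The width followed the score. In the lowest score class, the median broad Red1 peak was 787 bp around isolated summits and 545 bp around others alone in their peak, and in the highest class 2177 and 2116 bp. In the fourth class, with scores from 282 to 871, the medians were 1815 and 1491 bp. The difference between the groups was thus smallest among the strongest summits. The narrowest peak, 206 bp, held an isolated summit at position 876835 of chromosome XV with a score of 26.5, inside a Rec8 peak of 926 bp and outside Hop1 peaks. The widest, 16253 bp, spanned positions 125968 to 142220 of chromosome I and held the only isolated summit of that chromosome, at position 141616, near its right edge.

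In 7 cases, a summit that passed the rule shared its broad Red1 peak with between 1 and 4 further summits more than 5000 bp away. These were on chromosomes I, III, IV, IX and XIV, with 1 each, and chromosome VI, with 2, and their peaks were between 6261 and 16253 bp wide. They were isolated by the distance between summits but not by a gap in Red1 signal. Of the 7, all but the summit on chromosome IX (position 329542) were in a Rec8 peak. Without them, the median width was 1635 bp and the median distance to the Rec8 centre 228.5 bp.

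**Figure D3:**
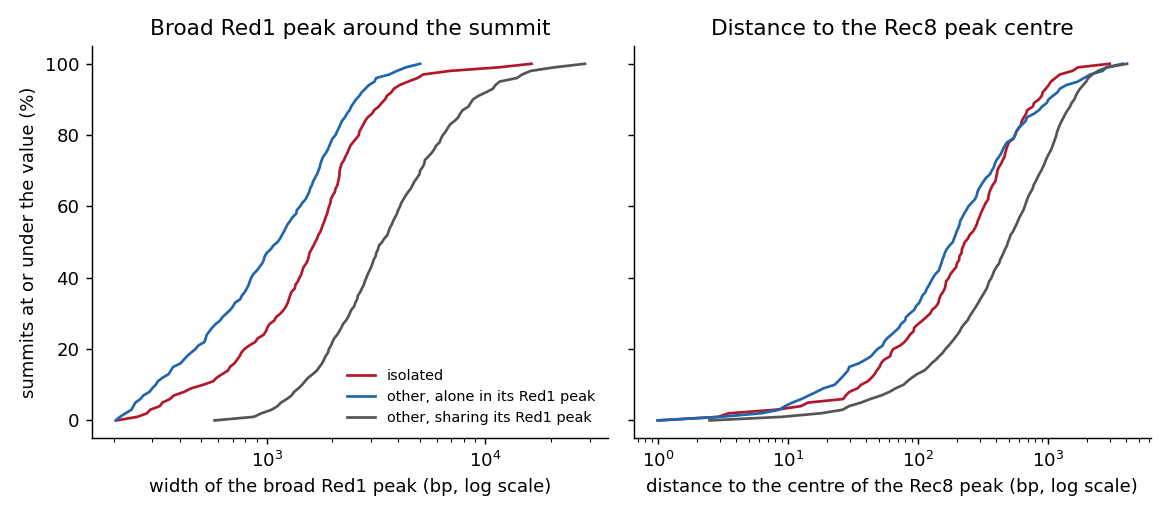
Cumulative share of summits, in percent, by the width of the broad Red1 peak around them (left) and by the distance to the centre of the Rec8 peak they lie in (right), both in bp on a log scale with distances under 1 bp drawn at 1 bp. Isolated summits (red, median width 1667 bp) lie between other summits alone in their Red1 peak (blue, 1121 bp) and those that share it (grey) in width, and nearly with the former in distance to the Rec8 centre.

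Isolated summits sat close to the middle of their Rec8 peaks. The median distance from an isolated summit to the centre of the Rec8 peak around it was 229 bp (interval 201 to 289; n = 297), against 399 bp (371 to 433; n = 1705) for the other summits, a difference of -170 bp. On 14 of 16 chromosomes the isolated summits had the smaller median. Of the 297, 155 (52.2%) were within 250 bp of the centre and 278 (93.6%) within 1000 bp, where 36.7% and 77.9% of the other summits were. The position relative to the width of the peak gave the same order: the median summit was at 34.1% of the way from the centre to the edge when isolated, and at 44.2% otherwise.

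This closeness was shared by the other summits that were alone in their Red1 peak. Their median distance was 185 bp (interval 154 to 209; n = 408), which was 43.8 bp less than that of the isolated summits (interval of the difference 7.03 to 111), and they were at 32.6% of the way to the edge. Their Rec8 peaks were narrower, with a median of 1448 bp against 1716 bp around isolated summits. The distance to the centre hardly followed the score among isolated summits (Spearman's rho 0.054, Pearson's r 0.071; n = 297). The Red1 and Rec8 peaks around an isolated summit were alike in width, with a median ratio of 1.02 (interval 0.991 to 1.06), and the Red1 peak was the narrower in 135 of 297 cases (45.5%). For all other summits the median ratio was 1.12, and for those alone in their Red1 peak it was 1.05 (1.01 to 1.08), with the Red1 peak narrower in 44.6%.

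The isolated summit farthest from the centre of its Rec8 peak was at position 595591 of chromosome XIII. It scored 771 and lay 2977 bp from the centre of the widest Rec8 peak around any isolated summit (7442 bp, positions 588894 to 596335), which ran to the left well beyond the Red1 peak of 1882 bp. The preceding Red1 summit, 5561 bp away, fell inside the same Rec8 interval, so Rec8 here covered a stretch with more than a single Red1 summit.

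The surroundings of isolated summits were poor in all 3 axis proteins. Over the flanks from 1000 to 5000 bp on both sides, Rec8 peaks covered a median of 5.46% of the bases (interval 4.15 to 7.11%), against 24.5% (23.5 to 25.4%) around the other summits. Flank cover includes any part of the summit's own peak that reaches beyond 1000 bp. Hop1 peaks covered 4.34% against 31.3%. For Red1 the medians were 5.15% and 32.7%, which the rule in part fixes. Rec8 cover was lower around the isolated summits on 15 of 16 chromosomes, the exception being chromosome I with its single isolated summit. Rec8 was called from other libraries than those that chose the summits, but since most Red1 summits lie in Rec8 peaks, Rec8 cover is not independent of the rule. The same holds for Hop1, whose peaks held 96.2% of all summits and whose samples shared 1 input library with Red1.

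**Figure D4:**
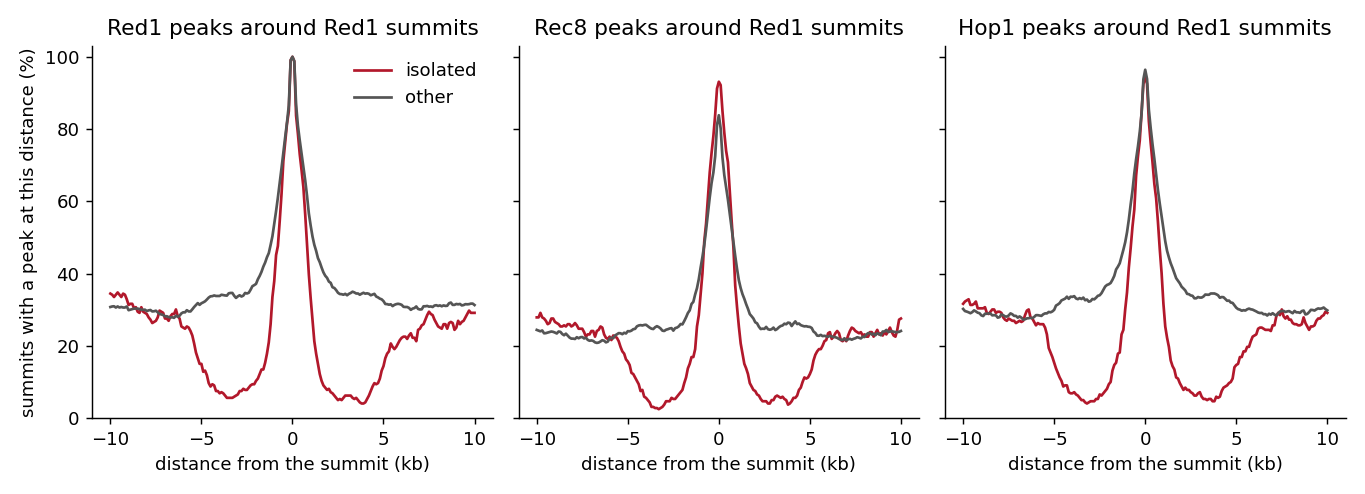
Percent of isolated (red) and other (grey) Red1 summits that have a Red1, Rec8 or Hop1 peak at each distance from the summit, in kb, in steps of 100 bp. Around isolated summits, cover at 3 kb, as the mean of both sides, is 4.39% for Rec8, 5.96% for Hop1 and 6.43% for Red1, and it is near the level of the other summits at 10 kb.

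With distance, the cover by each protein, averaged over both sides, went from a sharp centre through a trough to the level of the other summits. At 500 bp from the summit, 69.4% of the isolated summits had a Rec8 peak, against 60.8% of the others. At 1 kb the order had turned, with 32.4% and 41.5%. Rec8 was found 3 kb away for 4.39% of the isolated and 24.6% of the other summits, and 10 kb away for 27.7% and 24.3%. For Hop1 the shares 3 kb away were 5.96% of the isolated and 32.9% of the others, and those 10 kb away 30.4% and 30.0%. The trough thus extended over about the 5000 bp that the rule requires, for Rec8 and Hop1 as for Red1. With the flanks taken out to 10000 bp, the difference in Rec8 cover from the other summits was -7.77 points in place of -19.0.

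For 196 isolated summits (61.4%), no second Rec8 peak reached within 5000 bp, and for 211 (66.1%) no second Hop1 peak did. For 195 (61.1%) no second broad Red1 peak did, whereas 106 had 1 and 18 had 2 or more. Of these 134 further Red1 peaks, 61 held no listed summit, where 173 of all 1571 (11.0%) held none. Around the other summits the shares with no second peak were 24.7% for Rec8, 30.1% for Hop1 and 28.7% for Red1. The rule, which bars Red1 summits from this window, in part fixes the contrast. In the flank beyond 1000 bp, Rec8 cover was exactly 0 for 82 isolated summits (25.7%), against 3.24% of the other summits, and all 3 proteins had no cover there for 43 (13.5%), against 0.688%. Where there were further Rec8 peaks within 5000 bp, 74 of these 136 peaks held a Red1 summit of their own, and 62 held none, where 223 of all 1592 Rec8 peaks (14.0%) held none. A peak wholly within 5000 bp of an isolated summit cannot hold another listed summit. Nothing is therefore read from this share or from that of the Red1 peaks. The 62 were small: their median width was 474 bp and their median fold enrichment 1.27, against 1716 bp and 1.92 for the 297 Rec8 peaks around the isolated summits. Of these 62, 24 overlapped a broad Red1 peak. Weak Rec8 enrichment without a listed Red1 summit was therefore present in the flanks of some isolated summits.

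Isolated summits with more than 7500 bp to the nearer neighbour lay in Rec8 peaks in a higher share than those closer to the limit. Of 192 isolated summits with the nearer neighbour at up to 7500 bp, 172 (89.6%, interval 84.5 to 93.2%) were in a Rec8 peak. From 7500 to 10000 bp, 74 of 75 were (98.7%, 92.8 to 99.8%), and over 10000 bp 51 of 52 (98.1%, 89.9 to 99.7%). Taken singly, the intervals of both farther classes overlapped that of the first. Median scores over these 3 classes were 430, 413 and 994, and the rank correlation between score and distance was weak (Spearman's rho 0.11, Pearson's r 0.14; n = 319). With a limit of 7500 bp in place of 5000 bp, 127 summits were isolated, which are the farther classes together. Of these, 98.4% were in a Rec8 peak (interval 94.4 to 99.6%). The classes were not matched for score, and the distance that sets them also chose the members, so these shares are a description.

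The most isolated summit was at position 373091 of chromosome XV, with 19890 bp to the preceding and 22228 bp to the following summit. It had a score of 492, a Red1 peak of 1526 bp and a Rec8 peak of 2018 bp with its centre 157 bp away, and no Hop1 or Red1 peak in its flanks. The next were at position 293730 of chromosome V (17781 bp, score 1162) and position 1159722 of chromosome IV (17640 bp, score 2222). Their Rec8 peaks were wide, 2996 and 3088 bp, and their Rec8 fold enrichments were 2.29 and 2.40. Rec8 peaks covered between 12.5% and 16.5% of the flanks of all 3, more than the median of the isolated summits. For the summits on chromosomes V and IV, this cover was the part of their own wide Rec8 peaks beyond 1000 bp.

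A neighbour of an isolated summit has, by the rule, a long distance on 1 side already, so the following counts describe the order of the members and are no measure of clustering. Of the 319, 186 (58.3%) had another isolated summit as a direct neighbour, and the members fell into 206 uninterrupted runs, 133 of which held a single summit. The longest run held 7 isolated summits over 87.4 kb of chromosome XV, from position 326857 to position 414283, with scores from 37.2 to 806. All 7 lay in a Rec8 peak, and the most isolated summit of the list was among them.

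The limit of 5000 bp falls in a continuous range of distances. The isolated summits closest to it were at positions 792383 and 797389 of chromosome II, which are each other's nearer neighbours, and at position 888869 of chromosome XV, all at 5006 bp. They scored 183, 298 and 1747 and lay in both Rec8 and Hop1 peaks. The closest summit on the other side of the limit was at position 655763 of chromosome XI, with neighbours at 4987 bp and 12144 bp. It scored 642, in a Red1 peak of 1448 bp, 23.5 bp from the centre of its Rec8 peak. Within 250 bp above the limit, 21 of 26 summits were in a Rec8 peak and all 26 in a Hop1 peak. Within 250 bp under it, 25 of 28 and all 28 were. The median score was 216 just above the limit and 1223 just under it. At the limit, both the score and the share in Rec8 peaks thus ran opposite to the comparison over all members. With 26 and 28 summits and no interval for these values, this order is a description only.

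Isolated summits were unevenly distributed over the chromosomes, and were scarce on the shortest. Of the 224 interior summits on chromosomes I, III and VI, 10 were isolated (4.46%, interval 2.44 to 8.02%), against 309 of 2129 (14.5%, 13.1 to 16.1%) on the other 13 chromosomes. The share ran from 1.61% on chromosome I to 17.2% on chromosome II, and the highest of the 3 short chromosomes (VI, 6.17%) was below the lowest of the other 13 (VIII, 9.40%). Chromosome IV, with the longest span, held the most (41, or 15.1% of its interior summits). Per length, there were 12.1 isolated summits per Mb on the 3 shortest and 28.5 per Mb on the other chromosomes, although summits of any kind were denser on the short chromosomes (279 per Mb, against 185 to 239.8 per Mb on each of the other 13). The share of isolated summits and the density of summits cannot be told apart here, since closer spacing leaves fewer summits far from a neighbour. These 3 chromosomes held 7.07% of the span of the lists and 3.13% of the isolated summits.

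**Figure D5:**
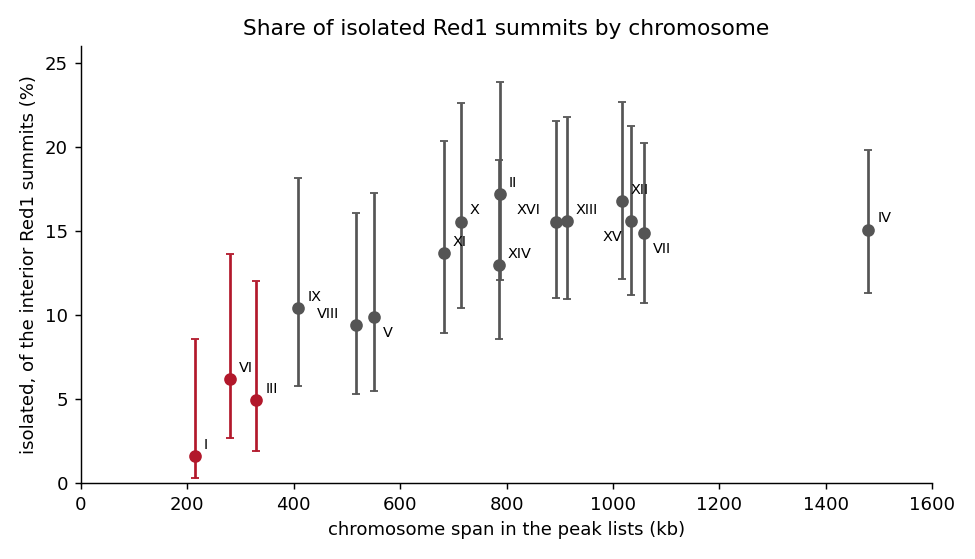
Isolated Red1 summits as a percent of the interior summits of each chromosome, against the span of the chromosome in the peak lists in kb; bars are 95% Wilson intervals and chromosomes I, III and VI are red. The 3 short chromosomes lie between 1.61% and 6.17%, and the other 13 between 9.40% and 17.2%.

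The share on the short chromosomes depended on the limit and on which summits were counted, and the direction did not. It was 8.04% with a limit of 4000 bp, 0.446% with 7500 bp, and 8.57% when only summits with a score of at least 50 were used as members and neighbours. The differences from the other 13 chromosomes were then -12.8, -5.47 and -14.2 points. Along chromosomes, the share was 10.1% (interval 6.09 to 16.2%) within 25 kb of the ends of the lists, 14.4% (10.1 to 20.3%) from 25 to 50 kb, 11.5% from 50 to 100 kb and 14.2% farther in. These shares pool all 16 chromosomes. On the other 13 alone, they were 11.4% (6.66 to 18.9%), 20.0% (14.0 to 27.7%), 12.2% (8.79 to 16.7%) and 14.6% (13.0 to 16.4%), in the same order. The intervals overlapped within each set, and a gradient towards the ends was not tested.

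The 10 isolated summits of chromosomes I, III and VI had higher median scores and wider median Red1 and Hop1 peaks than those elsewhere. Their median score was 1385, against 492 on the other 13 chromosomes, and their median broad Red1 peak 5315 bp wide, against 1639 bp. Their Hop1 peaks had a median of 8343 bp (n = 8), against 1636 bp (n = 294), whereas their Rec8 peaks had a median of 2068 bp (n = 9), against 1711 bp (n = 288). In the flanks, Hop1 peaks covered a median of 56.7%, against 4.04% elsewhere, and Rec8 peaks 10.1%, against 5.20%. These values include the parts of the summits' own peaks beyond 1000 bp, so they are not separate from the peak widths. Hop1 covered more of the flank than Rec8 did for 8 of the 10, and Rec8 more than Hop1 for 1. On the other 13 chromosomes, Hop1 covered more for 140 of 309 (45.3%), Rec8 for 114 (36.9%), and the rest were ties. Around the other summits of all chromosomes, Hop1 covered more for 67.7% and Rec8 for 30.7%. Wide Red1 peaks were not particular to the isolated summits of these chromosomes: the other summits had medians of 6738 bp on chromosome I, 7683 bp on III and 9215 bp on VI, against 16253, 5315 and 3534 bp for the isolated ones. With 10 summits on 3 chromosomes these values are a description.

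On chromosome III, the summit at position 238317 scored 2667 and had the highest Red1 fold enrichment of any isolated summit (3.66), 43.5 bp from the centre of its Rec8 peak. Hop1 peaks covered 58.1% of its flanks and Rec8 peaks 11.8%. A further strong summit, at position 265371, scored 2737, in a Red1 peak of 5359 bp and a Rec8 peak of 2068 bp, with 65.0% of its flanks under Hop1 and 3.13% under Rec8. The summit at position 245838 (score 1305) was at the left end of a Red1 peak of 11609 bp that held 4 summits, 2093 bp from the centre of its Rec8 peak. The weakest, at position 132812 (score 47.9), was the only isolated summit of chromosome III outside Hop1 peaks, in a Red1 peak of 787 bp and a Rec8 peak of 1033 bp. The 3 strong summits thus stood in broad Red1 and Hop1 intervals, and the weak summit in a small, bare one.

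On chromosome VI, 3 of the 5 isolated summits were strong. The summits at positions 84159 and 89545 were neighbours at 5386 bp with scores of 2168 and 2670. Hop1 peaks covered 40.0% and 66.4% of their flanks, and Rec8 peaks 2.84% and 7.43%. Next to them, the summit at position 99174 (score 1465) was in a Red1 peak of 11004 bp with 3 summits. The summit at position 265404 scored only 62.6 but shared a Red1 peak of 6261 bp, and its Rec8 peak was 519 bp wide with a fold enrichment of 1.18. Position 32259 held the summit in neither Rec8 nor Hop1 that was described above. On chromosome I, the single isolated summit scored 1166, and its Red1 and Hop1 peaks were 16253 and 17456 bp wide, against 6552 bp for its Rec8 peak, whose centre was 2432 bp away.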

How the data were processed

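ChIP-seq libraries of wild-type Red1 (4 samples), Hop1 (4) and Rec8 (2) were analysed through lists that combine the samples of a protein. The authors mapped reads with Bowtie to the SK1 genome, removed duplicates and called broad peaks against input with MACS2 (version 2.1.1 in the submitters' processing notes). The deposited lists give each broad peak's fold enrichment over input and its −log10 q-value. The deposited summit list gives a score per summit, whose definition is not given in the sources used here. The depth is unknown.

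Summits were classed by the distances to their neighbours, and a summit was inside a peak from 1 shared bp. Positions are 1-based SK1 coordinates. On 5 chromosomes the intervals pass the end of the S288C reference, so no S288C position, gene or sequence was used, and the span of a chromosome was taken from the lists. Intervals of differences combined those of the 2 groups. Weights by score came from 10 score classes. The intervals of weighted shares used the unweighted number of summits, and so tend to be too narrow. No test was run, because each protein has 1 list. Regions were named by rank of score, distance or width, at the limit, or on chromosomes I, III and VI, and 2 kinds were added later: summits in neither list and those that share a broad peak. Members and lists were chosen with earlier results of these data known. Functions were tested on simulated data. Python 3.11.15, NumPy 2.4.6, pandas 2.3.3 and SciPy 1.17.1 were used. Alternatives concerned the limit, score, q-value, tolerance, flanks, chromosomes and the summits compared.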

Additional observations from a re-analysis of the deposited data

How the results depend on the processing

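The direction of 4 differences turned: against other summits alone in their Red1 peak, the difference was 546 bp for Red1 width, 43.8 bp for distance to the Rec8 centre and 2.54 points for Hop1 overlap, and with scores of at least 50 it was 0.024 points for Hop1 overlap. The first choice was planned for width only and was otherwise made after seeing the data, where Rec8 cover differed by -17.1 points. Leaving out the isolated summits that share a broad peak, and the alternatives for summits with Hop1 but no Rec8, were also chosen then. With a limit of 4000 bp, Rec8 cover was 8.51% (difference -16.8 points), and the share isolated on the 3 shortest chromosomes 8.04% (-12.8). With 7500 bp, 127 summits were isolated, Rec8 overlap was 98.4% (difference 14.1 points), the Rec8 centre 296 bp away (-80.5 bp), the share on short chromosomes 0.446% (-5.47 points), and the differences were -824 bp in Red1 width and -16.4 points in Rec8 cover. With scores of at least 50, Hop1 overlap was 99.0%, Rec8 overlap 97.0%, Red1 width 1953 bp and the share on short chromosomes 8.57% (-14.2 points). With Rec8 peaks at −log10 q of at least 5, Rec8 overlap was 88.1%. Weighting by score gave differences of 2.69 points for Rec8 overlap and -2.50 points for Hop1 without Rec8. With the nearest Rec8 centre for every summit, the distance differed by -264 bp. Flanks out to 10000 bp gave a Rec8 cover of 14.9% (-7.77 points). The cause was not tested. The other 54 of 83 values stayed within the interval of the value reported or, for the number of summits, within 1.5 times it. Leaving out chromosomes I, III and VI and counting end summits with the others moved none of the values they were run on beyond these bounds.

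No paired analysis was possible because each list combines its samples. Single samples could not be left out. A summit absent from the list lengthens the distances of its neighbours, and no summit with a score under 20.0 was listed. How far summits depend on any 1 sample, and whether the peak caller's settings set the widths, was not tested.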
